A study of Mus musculus with 17 samples.

Results

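The HOX genes are homeobox transcription factor genes that stand side by side in the Hoxa, Hoxb, Hoxc and Hoxd clusters. They were taken as every protein-coding gene of the mm10 gene table (GRCm38.p6) whose symbol is Hox, a cluster letter from a to d and a number, which gave 39 of 21887 genes: 11 in Hoxa, 10 in Hoxb, 9 in Hoxc and 9 in Hoxd. Chromatin occupancy at these genes was measured by CUT&RUN, in which a nuclease is brought by an antibody to the protein it recognises and the DNA cut free there is sequenced. The cells were urothelium, the lining of the bladder, peeled from Stag2-KO mice (here KO) or Stag2-WT mice (here WT) 1 week after TMX induction, with about 500000 cells per condition. Antibodies were against STAG2 (2 KO and 2 WT libraries), LIN54 (2 KO and 3 WT) and p130 (3 KO and 3 WT), and the labels call the libraries of one group biological replicates. By the labels, batch 1 holds every STAG2 and LIN54 library, batch 2 holds p130-WT replicate 1 alone, and batch 3 holds the remaining 5 p130 libraries. Both genotypes had TMX induction, and the driver of recombination is not given in the sources used here.

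HOX genes specify position along the body axis. Their order in a cluster follows the order of the body regions that express them, and the posterior members, paralogs 9 to 13, pattern the trunk end, the limbs and the urogenital tract. In cells that do not use them, the clusters are held silent by Polycomb proteins, and the active and silent stretches of one cluster are separated by CTCF, at which cohesin, the DNA-looping ring that contains STAG2, comes to rest. LIN54 gives the MuvB core its contact with DNA, and p130 is the pocket protein that joins MuvB in DREAM, the complex that holds cell cycle genes down in resting cells. LIN54 binds the cell cycle homology region (CHR), a short promoter element, and HOX genes are not among the classical DREAM targets.

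Promoter sequences are shown for the genes on which the results below turn. Hoxa10 and Hoxa11 were the HOX genes marked in most libraries. Hoxb4 and Hoxd9 had a strong STAG2 peak at an end in both WT libraries, though at Hoxb4 these lay at opposite ends. Hoxd3 is the one of these genes that holds a CHR. Each is the 250 bases upstream of a RefSeq start site (GRCm38.p6), 5′ to 3′ on the gene's strand, in lower case with the CHR in capitals. Hoxa10 has a second start site inside the gene, and both are given. The Hoxa genes lie on the minus strand and the Hoxb and Hoxd genes on the plus strand.
Hoxa10, chr6:52240855-52241104, upstream start: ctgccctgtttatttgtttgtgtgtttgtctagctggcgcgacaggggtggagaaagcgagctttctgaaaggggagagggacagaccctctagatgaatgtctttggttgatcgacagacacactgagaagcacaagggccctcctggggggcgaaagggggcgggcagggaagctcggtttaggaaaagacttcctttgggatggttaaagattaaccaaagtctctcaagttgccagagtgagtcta
Hoxa10, chr6:52234940-52235189, internal start: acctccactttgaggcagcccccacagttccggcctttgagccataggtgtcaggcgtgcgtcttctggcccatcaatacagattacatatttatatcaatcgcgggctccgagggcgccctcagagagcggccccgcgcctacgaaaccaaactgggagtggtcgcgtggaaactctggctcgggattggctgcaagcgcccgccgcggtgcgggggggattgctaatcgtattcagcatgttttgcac
Hoxa11, chr6:52245811-52246060: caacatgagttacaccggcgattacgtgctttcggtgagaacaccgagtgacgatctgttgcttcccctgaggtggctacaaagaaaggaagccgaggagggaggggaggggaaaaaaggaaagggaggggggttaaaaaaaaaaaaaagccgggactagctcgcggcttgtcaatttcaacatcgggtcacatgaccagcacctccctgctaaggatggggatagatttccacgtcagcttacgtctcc
Hoxb4, chr11:96318017-96318266: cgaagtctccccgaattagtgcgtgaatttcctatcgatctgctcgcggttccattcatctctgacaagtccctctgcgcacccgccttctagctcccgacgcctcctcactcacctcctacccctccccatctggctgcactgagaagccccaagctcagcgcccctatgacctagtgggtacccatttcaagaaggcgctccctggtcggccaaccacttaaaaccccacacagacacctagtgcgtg
Hoxd9, chr2:74697513-74697762: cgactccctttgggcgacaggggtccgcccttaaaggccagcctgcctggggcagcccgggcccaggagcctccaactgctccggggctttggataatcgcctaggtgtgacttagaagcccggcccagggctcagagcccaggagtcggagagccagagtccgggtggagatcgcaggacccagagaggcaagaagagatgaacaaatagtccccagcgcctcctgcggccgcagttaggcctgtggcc
Hoxd3, chr2:74711743-74711992: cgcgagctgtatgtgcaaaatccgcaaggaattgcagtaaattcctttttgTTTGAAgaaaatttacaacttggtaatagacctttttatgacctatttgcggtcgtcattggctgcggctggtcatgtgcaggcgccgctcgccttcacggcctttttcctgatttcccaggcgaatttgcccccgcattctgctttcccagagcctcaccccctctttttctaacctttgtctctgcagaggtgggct

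RefSeq promoters could be matched for 22 of the 39 HOX genes, 24 start sites in all. A CHR (TTTGAA or TTCGAA, either strand) stood in 3 of the 24, those of Hoxd3, Hoxd10 and Hoxd12, which is 12.5%, against 15.9% of 21263 promoters of the same length over all protein-coding genes. An E2F site (TTTCCCGC, TTTGGCGC, TTTCGCGC or TTTGCCGC, either strand) was found in 0 of the 24 HOX promoters and in 2.35% of all promoters. A core CTCF word, either strand, was found in 0 of the 24 and in 1.98% of all. HOX promoters had a median GC content of 58.6% and 12.5 CpG dinucleotides, against 55.6% and 10.0 for all promoters. The match of a word describes these windows only.

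Peaks overlapped the sequences above to different degrees. The Hoxa10 upstream promoter was overlapped by a deposited peak in 12 of 15 libraries, 6 of them with a q of at most 0.01. The Hoxa11 promoter was overlapped in 13 libraries, 1 of them at q 0.01. The Hoxa10 internal promoter was overlapped in 8 libraries, 4 at q 0.01, and all 4 of these were LIN54-KO or STAG2-WT libraries. Hoxb4 had 8 overlaps (1 at q 0.01, in STAG2-WT), Hoxd9 had 5 (2 at q 0.01, both in STAG2-WT) and Hoxd3 had 7, of which 0 reached q 0.01.

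The deposited lists held 286079 to 539191 peaks per library, called by the authors up to p 0.05, and most of these peaks are weak. In the HOX windows, 2161 peaks had a median of 6.0 fragments at the summit (range 3 to 27), counts worked out from each peak's fold and p. A second setting therefore keeps peaks with a q of at most 0.01, 316 to 25859 per library; 124 of the HOX window peaks passed, with 12.0 fragments at the median and no fewer than 9. At q 0.01 the libraries differ widely over the whole genome: STAG2-KO had 1239 and 6777 peaks against 25859 and 13346 in STAG2-WT, and LIN54-KO had 15787 and 13044 against 4903, 6617 and 2166 in LIN54-WT. These totals move with the STAG2 and LIN54 counts at q 0.01 below, and their part in those counts was not tested. The p130 libraries had 316 to 896 such peaks. Of the 20 urothelial markers listed, a STAG2 peak at q 0.01 marked 1 in both KO libraries (Upk2) and 8 in both WT libraries. These are 5.0% and 40%, against 1.90% and 12.6% of all genes. In every library of a group at q 0.01, LIN54 marked 3 of the 20 in KO and 0 in WT (all genes 15.8% and 4.71%). Of 15 fibroblast and smooth muscle markers, 0 met that rule in any group, though single libraries marked up to 4 (LIN54-KO replicate 1). In every library of a group in the deposited lists, p130 marked 1 urothelial marker in KO and 2 in WT (5.0% and 10%). It marked 3 and 2 fibroblast and smooth muscle markers (20% and 13.3%), against 8.88% and 14.3% of all genes. The STAG2 and LIN54 groups marked 8 to 12 urothelial markers (40% to 60%). They marked 1 to 3 fibroblast and smooth muscle markers (6.67% to 20%). All genes stood at 23.8% to 35.5% in these groups. The purity of the cells was not tested. With the STAG2 antibody, an end of Stag2 itself had a deposited peak in 1 of 2 KO and 1 of 2 WT libraries (0 and 1 at q 0.01). An end outside the deleted part would not check the deletion, and the deleted part is not given in the sources used here. STAG2 protein left in KO was not measured here. A peak of the STAG2 antibody in KO therefore need not mark STAG2 itself. Where a list has no peak, none was detectable at the depth of that library.

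A HOX gene was called marked in a library when it had a summit no more than 500 bp from either of its ends. With STAG2 in KO urothelium, HOX genes were marked about as often as other genes, with 15 and 16 of 39 (38.5% and 41.0%) against 38.7% and 46.2% of all genes. In WT urothelium the STAG2 antibody marked 26 and 25 HOX genes (66.7% and 64.1%), against 50.7% and 53.0% of all genes. The KO and WT counts did not overlap, and of these 4 libraries only the WT ones had a HOX share above that of all genes, by 11.1 to 16.0 percentage points. LIN54 marked 22 and 20 HOX genes in KO, and 20, 17 and 17 in WT, so these groups met at 20; the shares were 56.4% and 51.3% in KO and 43.6% to 51.3% in WT, against 45.3% to 49.6% of all genes in these 5 libraries. p130 marked 17, 13 and 14 in KO, and 18, 16 and 12 in WT, with overlapping groups (30.8% to 46.2%, against 33.4% to 46.6% of all genes).

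Counted by cluster, the STAG2 difference was widest in Hoxc. Hoxc genes were marked in 0 and 0 of 9 in the STAG2-KO libraries, against 5 and 4 of 9 in STAG2-WT. The share of all genes in the same libraries was 38.7% and 46.2% in KO and 50.7% and 53.0% in WT. The Hoxc counts in WT were thus near that share, and those in KO under it. Hoxa gave 5 and 6 of 11 in STAG2-KO and 9 and 7 in STAG2-WT, and Hoxd gave 3 and 5 of 9 in STAG2-KO and 6 and 7 in STAG2-WT. Hoxb, with 7 and 5 of 10 in STAG2-KO and 6 and 7 in STAG2-WT, overlapped between genotypes. At q 0.01, STAG2 marked 0 and 3 HOX genes in KO (0% and 7.69%, all genes 2.36% and 9.93%) and 14 and 9 in WT (35.9% and 23.1%, all genes 29.3% and 17.4%), so the share of all genes differed between the genotypes in the same direction. LIN54 marked 4 and 4 in KO and 1, 1 and 1 in WT, and p130 marked 0 in each of its 6 libraries. The LIN54 shares at q 0.01, 10.3% in both KO libraries and 2.56% in each WT library, lay under those of all genes in the same libraries, which were 21.6% and 20% in KO and 6.77% to 13.1% in WT.

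**Figure D1:**
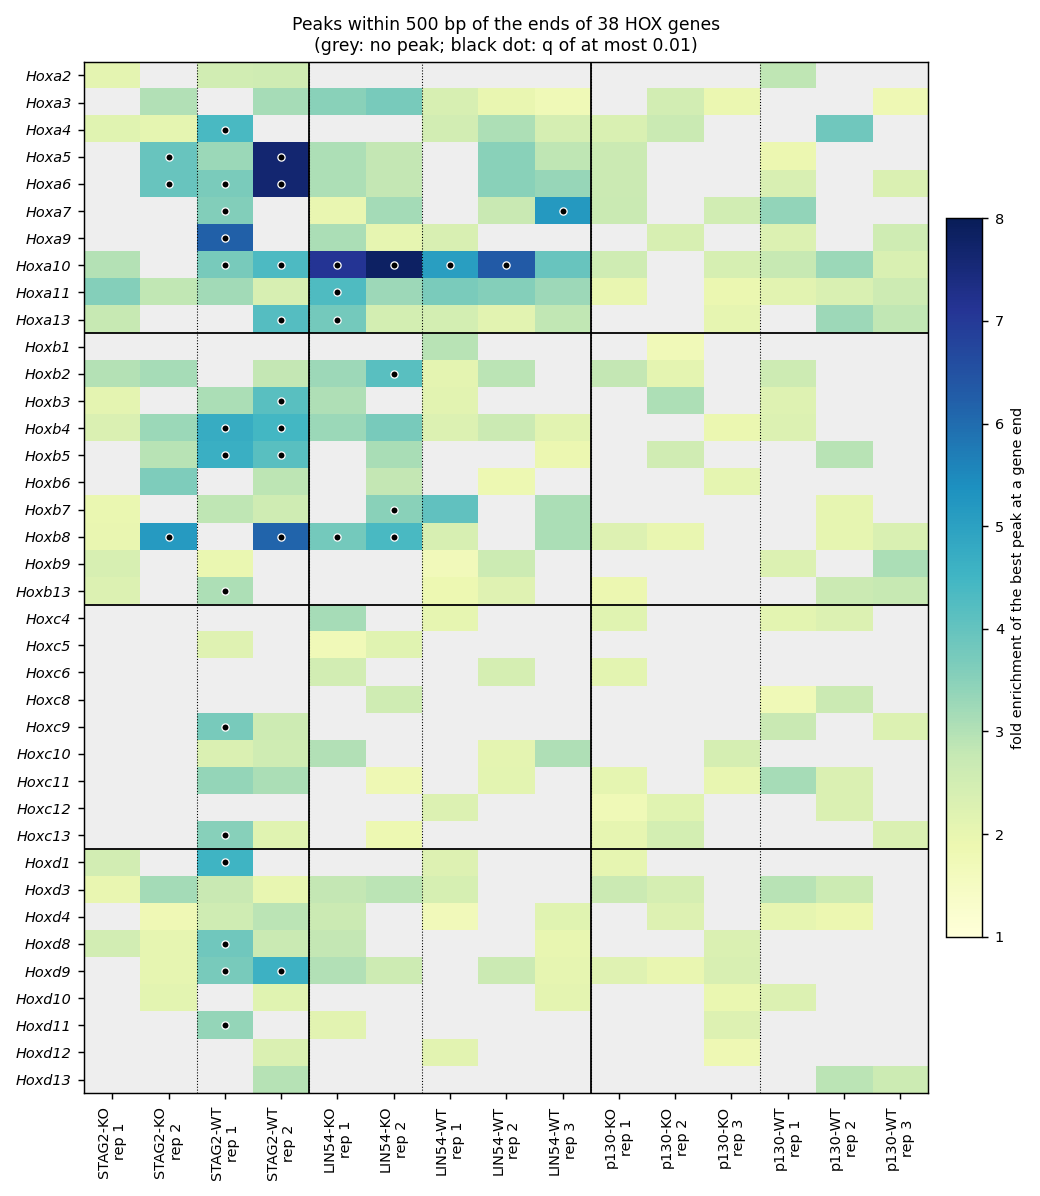
Fold enrichment (colour, a ratio defined in the text) of the best peak within 500 bp of an end of 38 of the 39 HOX genes. Rows are genes by cluster, and columns are the 15 libraries by antibody, KO left of WT. Grey means no peak and a black dot marks q of at most 0.01: STAG2-WT carries 14 and 9 dots against 0 and 3 in STAG2-KO, the Hoxa10 row is darkest under LIN54, and p130 has no dot.

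Over all 15 libraries, a HOX gene was marked in a median of 7.0 libraries, against 6.0 for all genes. The median was 9.0 for Hoxa, 7.0 for Hoxb, 5.0 for Hoxd and 4.0 for Hoxc. Hoxa11 was marked in 14 libraries and Hoxa10 in 13, while Hoxb1, an anterior gene of the hindbrain, was marked in 2. No HOX gene was marked in all 15 libraries, as 1.92% of all genes were, and none in 0 libraries, as 6.57% of all genes were. A peak at q 0.01 marked 21 of 39 HOX genes (53.8%) in at least 1 library, against 41.3% of all genes, with 8 of 11 in Hoxa, 7 of 10 in Hoxb, 4 of 9 in Hoxd and 2 of 9 in Hoxc. Some members share peaks because their ends are close: 271 bp lie between Hoxa5 and Hoxa6, 279 bp between Hoxb7 and Hoxb8, 668 bp between Hoxc4 and Hoxc5, and 980 bp between Hoxb3 and Hoxb5.

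Genes marked in every library of a group were then set against the share of all 21887 genes that met the same rule. For STAG2, 7 of 39 HOX genes met it in KO (17.9%, all genes 25.5%) and 17 in WT (43.6%, all genes 35.0%). For LIN54, 14 met it in KO (35.9%, all genes 35.5%) and 6 in WT (15.4%, all genes 23.8%). For p130, 1 met it in KO, Hoxd9 (2.56%, all genes 8.88%), and 2 in WT, Hoxa10 and Hoxa11 (5.13%, all genes 14.3%). In STAG2-WT the HOX share was above the background, the LIN54-KO share was near it, and the other shares lay under it. The STAG2-WT excess was not tested, and some members share peaks. At q 0.01 the STAG2 counts were 0 in KO (all genes 1.90%) and 5 in WT (12.8%, all genes 12.6%). The LIN54 counts at q 0.01 were 2 in KO (5.13%, all genes 15.8%) and 0 in WT (all genes 4.71%), and the p130 counts were 0 in KO (all genes 0.681%) and 0 in WT (all genes 0.758%). The LIN54 shares at q 0.01 were thus under the background, and the STAG2-WT share was near it. For p130 and for STAG2 in KO, the background is less than the 2.56% that 1 of 39 genes makes. A count of 0 therefore says little there.

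Genes marked in every library of one genotype and in none of the other were few. With STAG2, 0 HOX genes were so marked in KO alone (all genes 2.03%) and 4 in WT alone (10.3%, all genes 6.44%), all of them posterior Hoxc genes: Hoxc9, Hoxc10, Hoxc11 and Hoxc13. With LIN54, Hoxc5 was marked in KO alone (1 of 39, 2.56%, all genes 2.04%) and Hoxa4 in WT alone (1 of 39, all genes 1.38%). With p130, Hoxd9 was marked in KO alone (1 of 39, all genes 0.854%) and 0 in WT alone (all genes 2.42%). A single gene is the smallest share above 0 that 39 genes can show. At q 0.01, STAG2 marked 0 in KO alone (all genes 0.0320%) and 4 in WT alone, Hoxa10, Hoxb4, Hoxb5 and Hoxd9 (10.3%, all genes 6.19%), and LIN54 marked Hoxb8 in KO alone (2.56%, all genes 3.99%) and 0 in WT alone (all genes 0.0183%).

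Peak strength is given as the fold at the summit. It is the ratio of the fragments there to the background estimated in the same library, with 1 added to each. It is the authors' value within 1 library, so folds describe and rank peaks and were not tested between genotypes. Percentiles rank a peak's −log10 p among all peaks of its library. Each gene below was named by rule: the best ranked in each group, those marked at q 0.01 in every library of a group, and those marked in one genotype alone. A gene named by a strong peak in a group is high there by that rule, so the order of the groups in its folds is a description.

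Among the posterior Hoxa genes, Hoxa10, a regulator of urogenital and blood cell development, was the strongest LIN54 gene end. Its LIN54 folds were 7.11 and 7.83 in KO (18 and 19 fragments), against 5.05, 6.33 and 3.95 in WT (12, 15 and 10 fragments). Their mean percentile was 99.3 in KO and 99.4 in WT, so they stood alike among the peaks of their own libraries. With STAG2, Hoxa10 had a fold of 2.97 in KO replicate 1 and no peak at an end in KO replicate 2, against 3.71 and 4.33 in WT. With p130 it had 2.57 and 2.40 in KO replicates 1 and 3, none in KO replicate 2, and 2.74, 3.27 and 2.33 in WT. The best Hoxa10 peak lay at the 5′ end in each of these STAG2 libraries and in LIN54-KO, and at the 3′ end in LIN54-WT replicates 1 and 3.

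Hoxa11, which with its paralogs patterns the limb and the reproductive and urinary tracts, was marked in every library but p130-KO replicate 2. Its LIN54 folds were 4.30 and 3.25 in KO, against 3.69, 3.56 and 3.26 in WT. Its STAG2 folds were 3.57 and 2.83 in KO, where it was the best ranked HOX gene, against 3.19 and 2.39 in WT. The genotypes overlapped for both antibodies. p130 gave 1.97 and 1.92 in KO and 2.13, 2.32 and 2.59 in WT, where all 3 lay higher. Hoxa13, the last gene of the cluster and a regulator of hindgut and urogenital development, was among the best ranked for p130 in WT at 3.25 and 2.81 in 2 of 3 libraries, and p130-KO had 2.03 in 1 of 3.

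In the middle of the Hoxa cluster, Hoxa6 and Hoxa5 share 1 summit in several libraries. For STAG2, Hoxa6 had no peak in KO replicate 1 and a fold of 3.93 in KO replicate 2, against 3.70 and 7.64 in WT. The KO replicate 2 value lies between the WT values, and the 7.64 peak is the same one that marks Hoxa5. Hoxa4 was marked by LIN54 in 0 of 2 KO libraries and in 3 of 3 WT libraries, at folds of 2.49, 3.07 and 2.44, and its p130 folds were 2.32 and 2.68 in KO replicates 1 and 2 and 3.83 in WT replicate 2. Hoxa7 had p130 folds of 2.67 and 2.51 in KO replicates 1 and 3, and 3.38 in WT replicate 1. None of these Hoxa4 and Hoxa7 peaks reached q 0.01.

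In Hoxb, the STAG2 peaks at Hoxb4 and Hoxb5 had similar folds in both WT libraries. The WT peaks of Hoxb5 lay at 1 site. Those of Hoxb4 lay at opposite ends of the gene, 83 bp from the 5′ end (4.74) and 225 bp from the 3′ end (4.47). Hoxb4, known for its role in blood stem cells, had STAG2 folds of 2.31 and 3.27 in KO, against 4.74 and 4.47 in WT (16 and 11 fragments). Hoxb5 had no STAG2 peak in KO replicate 1 and 2.92 in KO replicate 2, against 4.64 and 4.16 in WT. LIN54 also gave more at Hoxb4 in KO, at 3.28 and 3.71, than in WT, at 2.28, 2.65 and 2.14, with 0 of these 5 peaks at q 0.01. Hoxb2, a hindbrain gene, had STAG2 folds of 2.97 and 3.15 in KO, and in WT no peak in replicate 1 and 2.80 in replicate 2. Hoxb8 was marked by LIN54 at 3.78 and 4.37 in KO, both at q 0.01, against 2.38 and 3.10 in WT replicates 1 and 3 and no peak in replicate 2. The 3.78 peak lay at the 3′ end, where both KO libraries had a q 0.01 peak. The 4.37 peak lay at the 5′ end, where KO replicate 1 had 2.67 (q 0.287). The STAG2 folds of Hoxb8, at the 5′ end, were 1.98 and 5.13 in KO and 6.14 in WT replicate 2. In WT replicate 1 a STAG2 peak with a fold of 6.66 had its summit just outside the 500 bp.

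In Hoxc, the strongest peak of any library had a fold of 4.27, against 6.26 in Hoxd, 7.21 in Hoxb and 9.22 in Hoxa. The posterior Hoxc genes marked by STAG2 in WT alone had no summit within 500 bp of an end in either KO library, though at Hoxc9 and Hoxc13 a peak region was shared by 3 of the 4 STAG2 libraries, KO included. In WT, Hoxc9 had 3.71 and 2.61, Hoxc10 had 2.30 and 2.56, Hoxc11 had 3.36 and 3.10, and Hoxc13, a regulator of hair and nail keratins, had 3.54 and 2.17. Among these 8 peaks, those of Hoxc9 and Hoxc13 in replicate 1 reached q 0.01. The Hoxc5 peaks that marked it in LIN54-KO alone had folds of 1.72 and 2.16, near the low end of the lists. Hoxd9, a posterior gene of limb and trunk, had no STAG2 peak in KO replicate 1 and 2.02 in KO replicate 2, against 3.71 and 4.60 in WT (12 fragments in both). Its p130 folds were 2.19, 1.98 and 2.34 in KO, and it had no p130 peak in WT.

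Beyond gene ends, peaks were counted across each cluster from its first to its last HOX gene end plus 20000 bp on each side. The windows are chr6:52135367-52280880 for Hoxa (145514 bp), chr11:96174316-96388254 for Hoxb (213939 bp), chr15:102901131-103056856 for Hoxc (155726 bp) and chr2:74648225-74785142 for Hoxd (136918 bp). The only other protein-coding gene in them is Evx2, a homeobox gene beside Hoxd13. To compare libraries, peaks per 100 kb of a window were divided by peaks per 100 kb of the whole genome in the same library.

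By this measure the Hoxa window was the densest for LIN54 and, in KO, for STAG2. With LIN54 its relative density was 3.38 and 2.51 in KO and 2.30, 3.26 and 2.66 in WT. With STAG2 it was 2.27 and 3.07 in KO and 2.37 and 2.55 in WT, and with p130 1.66, 1.41 and 1.44 in KO and 1.49, 1.93 and 2.52 in WT. KO and WT overlapped for all 3 antibodies. In Hoxb the STAG2 values were 1.89 and 2.31 in KO and 2.97 and 2.48 in WT. In Hoxc they were 1.01 and 1.28 in KO and 1.74 and 1.56 in WT, and in Hoxd 1.5 and 1.81 in KO and 2.66 and 2.05 in WT. In these 3 clusters every STAG2-WT library was denser than every STAG2-KO library.

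The mean log2 relative density with STAG2, KO minus WT, was 0.10 in Hoxa, −0.37 in Hoxb, −0.52 in Hoxc and −0.49 in Hoxd (n = 2 and 2). In two-sided exact permutation tests over libraries, p was 1.0 in Hoxa and 0.33 in the other clusters, which is the smallest value that 2 against 2 libraries allow. With LIN54 the differences were 0.10, 0.26, −0.17 and −0.51 in Hoxa, Hoxb, Hoxc and Hoxd, with exact permutation p of 0.70, 0.30, 0.40 and 0.30 (n = 2 and 3). With p130 they were −0.36, 0.18, −0.37 and −0.20, with exact permutation p of 0.20, 0.50, 0.10 and 0.40 (n = 3 and 3). The p130 groups did not overlap in Hoxc, at 1.16, 1.10 and 1.08 in KO and 1.56, 1.51 and 1.28 in WT; 0.10 is the smallest p that 3 against 3 or 2 against 3 allow. With Benjamini-Hochberg adjustment over the 12 exact permutation tests, the lowest adjusted p was 0.533. Without the WT library of batch 2, the p130 differences were −0.55, 0.21, −0.31 and −0.10.

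**Figure D2:**
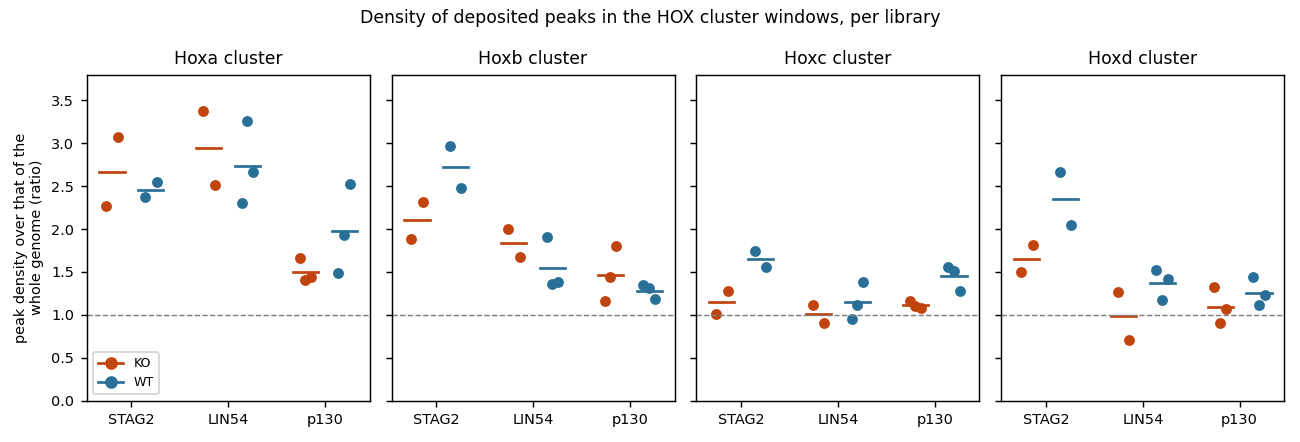
Density of deposited peaks in each HOX cluster window over that of the whole genome (ratio, y axis) for each library (points) by antibody, KO left of WT, with bars at the group means and a dashed line at the genome-wide density. The STAG2-WT points lie above the STAG2-KO points in Hoxb, Hoxc and Hoxd and overlap them in Hoxa.

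Peaks at q 0.01 were unevenly spread over the clusters. In the Hoxa window there were 0 and 2 with STAG2 in KO against 16 and 6 in WT, and 15 and 16 with LIN54 in KO against 4, 7 and 1 in WT. In Hoxb, STAG2 had 0 and 1 in KO against 23 and 7 in WT, and LIN54 had 3 and 5 in KO against 0, 1 and 0 in WT. For both antibodies the genotypes did not overlap in these windows, and their directions were opposite. In Hoxd, STAG2 had 0 and 1 in KO and 8 and 3 in WT, and LIN54 had 0 in each library. In Hoxc, STAG2-WT replicate 1 had 5 and every other library had 0. p130 had 0 peaks at q 0.01 in each window and library.

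Set against the library's own q 0.01 total, the LIN54 groups overlapped in Hoxa. The relative density of q 0.01 peaks in Hoxa with LIN54 was 17.8 and 22.9 in KO and 15.3, 19.8 and 8.64 in WT, which overlap, and the mean log2 difference was 0.31 (exact permutation p = 0.40, n = 2 and 3). With STAG2 it was 0 and 5.52 in KO and 11.6 and 8.41 in WT, and the mean log2 difference was −0.53 (exact permutation p = 0.33, n = 2 and 2). STAG2-KO replicate 1 had 0.0455 such peaks per 100 kb of the genome, so few that 0 in a window of this size says little. The 0.5 added to its count of 0 put its log2 value at 2.92 in Hoxa and 2.36 in Hoxb. These lie above the 2.79 and 1.49 of KO replicate 2, which had peaks there. In Hoxb, STAG2 gave 0 and 1.88 in KO and 11.3 and 6.67 in WT, a mean log2 difference of −1.26 (exact permutation p = 0.33). LIN54 gave 2.42 and 4.88 in Hoxb in KO and 0, 1.92 and 0 in WT, a mean log2 difference of 0.81 (exact permutation p = 0.60). These LIN54 ratios did not overlap, but their log2 values did. With 0.5 added, LIN54-WT replicates 2 and 3, with 1 and 0 peaks, stood at 1.53 and 1.55. LIN54-KO replicate 1, with 3 peaks, stood at 1.5. The 0.5 added thus sets this overlap, and the test says little here.

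Within Hoxa, most LIN54 peaks at q 0.01 sat over the posterior genes. The stretch from Hoxa9 to Hoxa13 (chr6:52223097-52260880, 37784 bp) held 11 and 13 in LIN54-KO and 4, 6 and 0 in LIN54-WT. The rest of the cluster, up to the base before Hoxa9, held 2 and 2 in KO and 0, 1 and 1 in WT. It includes the strongest site, described below, 1111 bp from the 3′ end of Hoxa9. Deposited LIN54 peaks covered 63.3% and 59.5% of the posterior stretch in KO, against 25.8%, 41.7% and 15.9% in WT. In the rest of the cluster they covered 19% and 14.7% in KO and 5.63%, 21.2% and 10.8% in WT. By coverage, the LIN54 groups did not overlap in the posterior stretch and overlapped in the rest, while by the number of q 0.01 peaks they overlapped in neither. Over the q 0.01 density of the whole genome in the same library, the posterior stretch stood at 50.2 and 71.8 in KO and 58.8, 65.3 and 0 in WT, which overlap. Coverage of the whole genome by deposited LIN54 peaks was 4.22% and 4.90% in KO and 4.15%, 4.70% and 3.88% in WT.

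STAG2 peaks covered the posterior Hoxa stretch at 19.5% and 41.3% in KO and 91.2% and 29.6% in WT. The 91.2% belongs to WT replicate 1, whose widest peak in the Hoxa window was 11346 bp, against 1044 and 1522 bp in the KO libraries and 2230 bp in WT replicate 2. A peak so wide has a single summit, so counts of peaks and of marked ends understate coverage in that library. p130 peaks covered 9.79%, 9.55% and 6.09% of the stretch in KO and 8.05%, 9.54% and 18.9% in WT.

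The Hoxb peaks at q 0.01 lay at the opposite side of their cluster. From Hoxb1 to Hoxb8 (91659 bp) STAG2 had 0 and 1 in KO and 18 and 7 in WT, and LIN54 had 3 and 5 in KO and 0, 1 and 0 in WT. The stretch of Hoxb9 and Hoxb13 (82280 bp) held 4 in STAG2-WT replicate 1 and 0 in every other library. Most of this stretch, chr11:96196610-96271330, lies between these genes and holds no HOX gene. Hoxd peaks with STAG2 in WT were split, with 4 and 1 over Hoxd9 to Hoxd13 and 4 and 2 over Hoxd1 to Hoxd8, and 1 KO library had 1 peak, in the second of these.

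**Figure D3:**
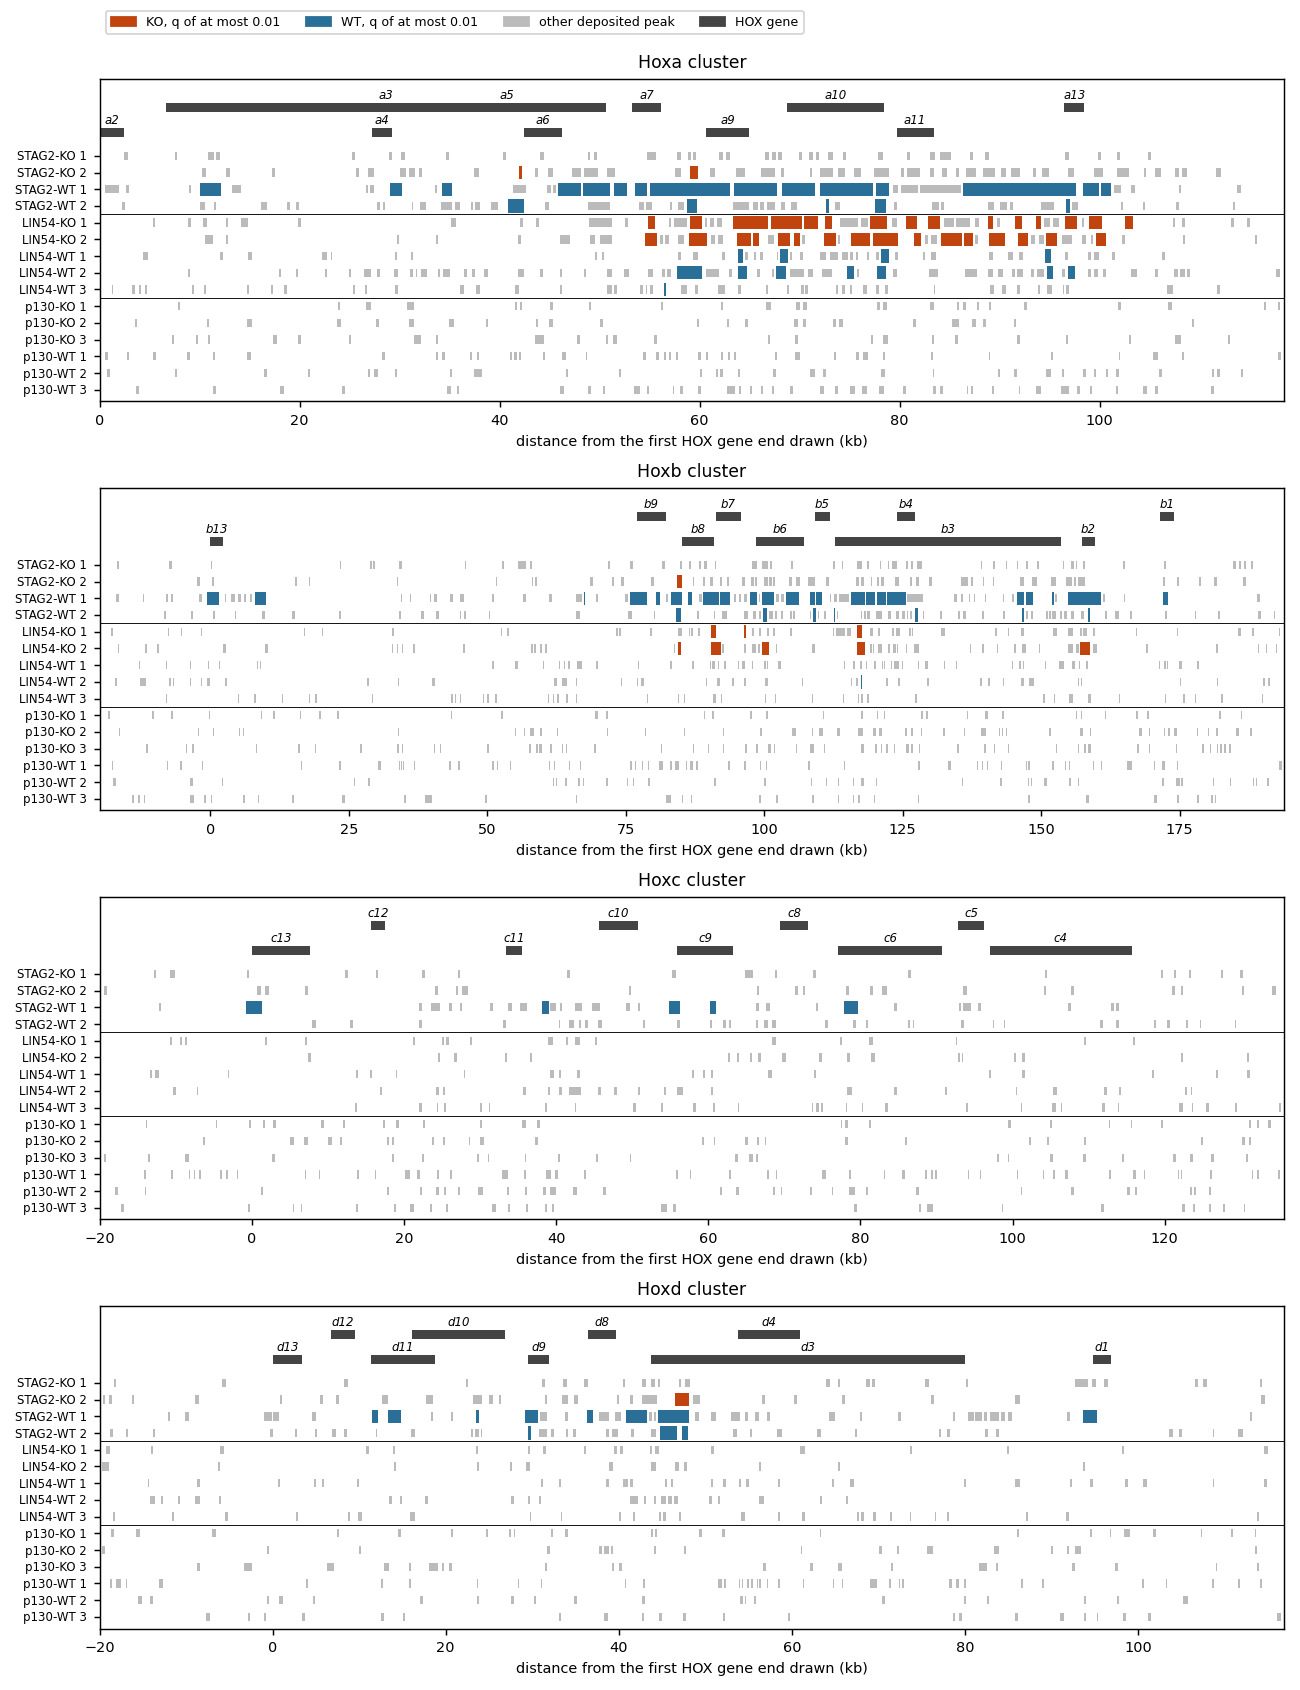
Peaks of the 15 libraries (rows, KO above WT for each antibody) along the 4 HOX clusters, by distance in kb from the first HOX gene end drawn, with q 0.01 peaks in red for KO and blue for WT, other deposited peaks in grey and genes as dark bars. LIN54-KO peaks at q 0.01 crowd over Hoxa9 to Hoxa13, where STAG2-WT replicate 1 is almost fully covered (91.2%), and the Hoxc window is nearly without q 0.01 peaks.

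**Figure D4:**
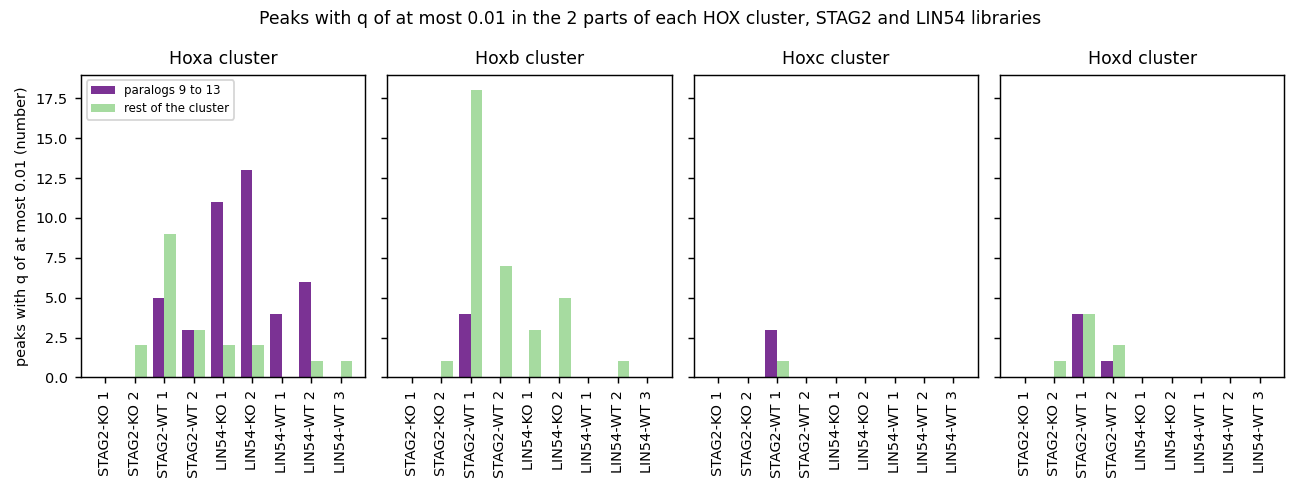
Number of q 0.01 peaks (y axis) over paralogs 9 to 13 (purple) and over the rest of each cluster from its first to its last gene end (green) in the STAG2 and LIN54 libraries, KO left of WT. LIN54 peaks stand over the posterior Hoxa genes (11 and 13 in KO, 4, 6 and 0 in WT), and Hoxb peaks over Hoxb1 to Hoxb8.

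Most strong peaks in the clusters were not at gene ends. Of the 124 peaks at q 0.01, 85 had their summit over 500 bp from a HOX gene end, and the other 39 (31.5%) lay at an end, as did 320 of the 2161 deposited peaks (14.8%). Grouped where summits lay within 500 bp of each other, they formed 78 sites: 35 in Hoxa, 28 in Hoxb, 10 in Hoxd and 5 in Hoxc. A q 0.01 peak in at least 3 libraries was found at 11 sites, 8 in Hoxa and 3 in Hoxb. These sites passed through the libraries where they are high, so the order of the groups at them is a description.

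The strongest site lay between Hoxa7 and Hoxa9, 1111 bp from the 3′ end of Hoxa9 (chr6:52221785-52222114). LIN54 folds there were 8.31 and 9.22 in KO (24 and 27 fragments), against 4.09, 5.62 and 2.72 in WT (9, 12 and 6 fragments). STAG2 folds were 2.46 and 4.17 in KO and 6.75 and 6.09 in WT. p130 had a fold of 2.42 in 1 of 3 KO libraries and 2.66, 2.27 and 2.42 in WT.

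A second site lay inside Hoxa9, 986 bp from its 5′ end (chr6:52226326-52226444). Its LIN54 folds were 6.98 and 7.53 in KO and 6.20, 8.17 and 2.19 in WT, which overlap. STAG2 had 2.46 in KO replicate 2 and 3.20 in WT replicate 2; in WT replicate 1 a wide peak covered the site with its summit elsewhere. At the 5′ end of Hoxa10 (chr6:52240375-52241050), STAG2 folds were 2.97 and 3.26 in KO and 3.71 and 4.33 in WT, and LIN54 folds were 7.11 and 7.83 in KO and 4.48, 6.33 and 2.52 in WT. The 5 LIN54 summits and 3 of the 4 STAG2 summits lay inside the gene and not in the upstream promoter shown above, and that of STAG2-KO replicate 2 lay over 500 bp from the gene end. Just upstream of the internal Hoxa10 start (chr6:52235190-52235477), LIN54 gave 4.94 and 5.09 in KO, and 2.79, 3.38 and no summit in WT, while STAG2 gave 2.54 and 3.30 in KO and 4.13 in WT replicate 2, with a wide peak over the site in WT replicate 1.

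The other 4 Hoxa sites were near the 3′ end of Hoxa10 and around Hoxa13. Near Hoxa10 (chr6:52230743-52231200), LIN54 folds were 5.32 and 6.29 in KO and 5.05, 4.33 and 3.95 in WT. Around Hoxa13, the LIN54 folds at 3 sites ran from 2.99 to 5.57 in KO and from 2.04 to 6.14 in WT, and overlapped at 2 of them; at the third, 1546 bp from the 5′ end, they were 4.30 and 4.28 in KO, and 3.11, 2.04 and no summit in WT.

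The 3 Hoxb sites differed from each other. Next to Hoxb8, 458 bp from its 5′ end (chr11:96278809-96278961), STAG2 gave 1.98 and 5.13 in KO and 6.66 and 6.14 in WT, and LIN54 gave 2.67 and 4.37 in KO and 1.88 in 1 of 3 WT libraries. Within Hoxb6 (chr11:96294274-96294612), STAG2 gave 1.65 and 2.74 in KO and 4.97 and 5.35 in WT, and LIN54 gave 3.10 and 4.78 in KO and 2.51, 3.03 and 2.81 in WT. Within Hoxb3, 4748 bp from its 5′ end (chr11:96311822-96311875), LIN54 gave 7.21 and 4.98 in KO and 3.03, 4.42 and 2.58 in WT, while STAG2 overlapped with 2.10 and 3.19 in KO and 6.55 and 3.11 in WT. p130 had a summit there in 3 of 3 KO libraries (2.66, 3.07 and 2.60) and in 2 of 3 WT libraries (1.92 and 2.53).

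**Figure D5:**
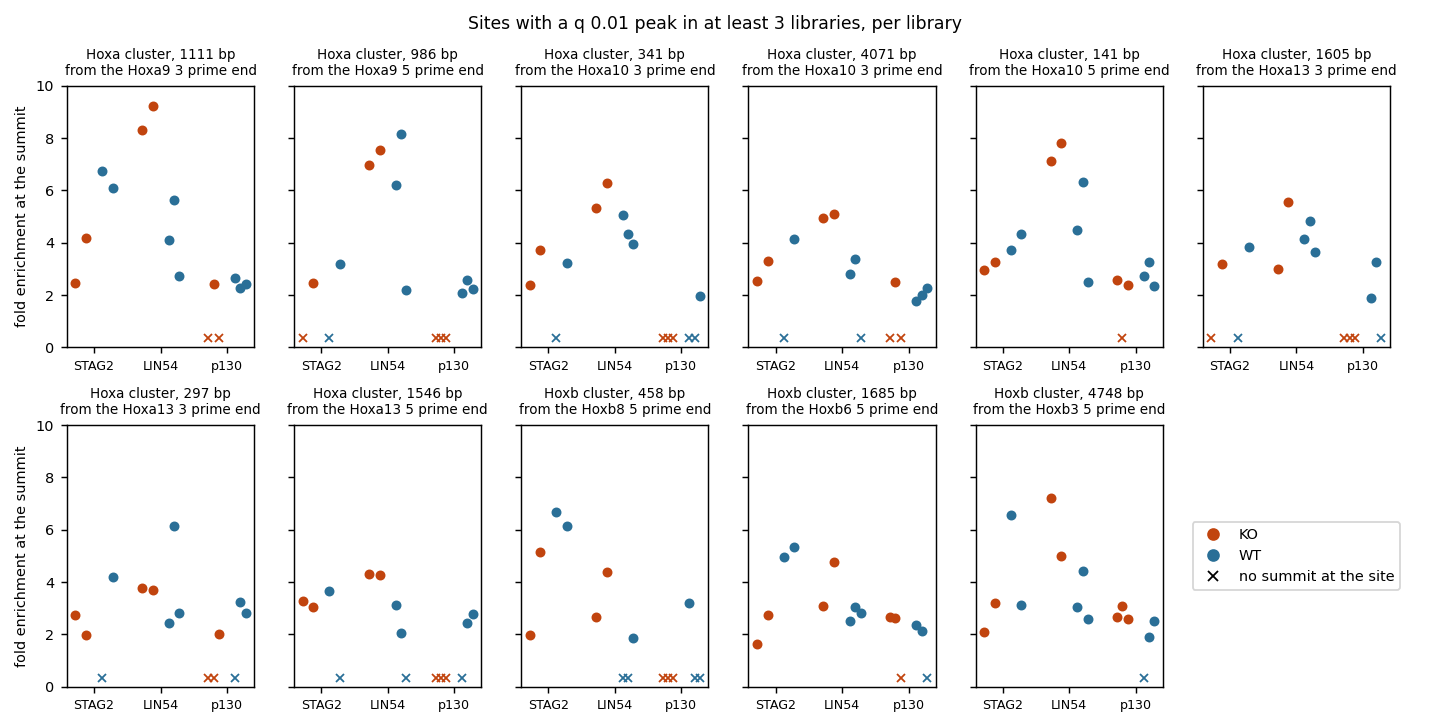
Fold enrichment at the summit (y axis, ratio) in each library (points, KO left of WT, by antibody) at the 11 sites with a q 0.01 peak in at least 3 libraries, with crosses where no summit lay at the site. At the site 1111 bp from Hoxa9, LIN54-KO (8.31 and 9.22) lies above LIN54-WT (2.72 to 5.62), and STAG2-KO (2.46 and 4.17) lies under STAG2-WT (6.09 and 6.75).

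Peaks of 1 antibody were also merged where they overlapped, to find the regions shared by most libraries. The STAG2 antibody had 10 Hoxa, 15 Hoxb, 4 Hoxd and 0 Hoxc regions in all 4 libraries, KO included. The best ranked were chr6:52239813-52241363 at the 5′ end of Hoxa10 and chr6:52210766-52215130 at the 5′ end of Hoxa3, chr11:96291715-96293084 at Hoxb6 and chr11:96310016-96312743 within Hoxb3, and chr2:74712717-74716474 within Hoxd3 and chr2:74701611-74702350 between Hoxd8 and Hoxd9. In Hoxc, the 2 best were in 3 of 4 libraries, at Hoxc9 (chr15:102976006-102977478) and Hoxc13 (chr15:102920394-102922530).

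LIN54 had 11 Hoxa, 4 Hoxb, 1 Hoxd and 0 Hoxc regions in all 5 libraries. The best ranked were chr6:52245275-52246406 at the 5′ end of Hoxa11, chr6:52253923-52255291 between Hoxa11 and Hoxa13, chr11:96310920-96312543 within Hoxb3, chr11:96293897-96295133 within Hoxb6 and chr2:74711828-74713768 at the 5′ end of Hoxd3. Next were chr2:74697528-74698101 at Hoxd9 and chr15:102962858-102964394, before Hoxc10, in 4 of 5 libraries, and chr15:102946093-102946628 in 3 of 5. p130 had 0 regions in all 6 libraries in any cluster. Among its most shared regions, in 5 of 6, were those at Hoxa10 (chr6:52240195-52241251), within Hoxb3 (chr11:96311337-96312368), at Hoxb1 (chr11:96368247-96369347) and at Hoxc11 (chr15:102956672-102957491). Below these came chr15:102942894-102943845, in 4 of 6, and chr2:74710939-74711219 and chr2:74720175-74720575 in Hoxd, in 3 of 6.

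The clusters also hold microRNA genes that target HOX transcripts, and the seeds (bases 2 to 8, in capitals) show their families. miR-196b comes from Hoxa and miR-196a from Hoxb and Hoxc, with 1 seed, and miR-10a comes from Hoxb and miR-10b from Hoxd, with another.
miR-196b-5p: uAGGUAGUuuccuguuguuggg
miR-196a-5p: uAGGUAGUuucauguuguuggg
miR-10a-5p: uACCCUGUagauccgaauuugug
miR-10b-5p: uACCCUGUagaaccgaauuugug

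Of the hairpins, Mir196b (chr6:52230081-52230165, between Hoxa9 and Hoxa10) was overlapped by a peak in 5 libraries. Those at q 0.01 were in 1 LIN54-KO, 1 STAG2-WT and 1 LIN54-WT library. Mir10a, just upstream of Hoxb4 (chr11:96317165-96317274), was overlapped in 2 libraries, at q 0.01 in 1 STAG2-WT library. Mir196a-1, Mir196a-2 and Mir10b were overlapped in 0 of 15 libraries.

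The genes listed around HOX biology were marked as follows, in every library of a group at q 0.01, a rule met by 1.90% of all genes with STAG2 in KO and 12.6% in WT, and by 15.8% with LIN54 in KO and 4.71% in WT. Of 11 HOX cofactor genes of the TALE class, STAG2 marked 0 in KO and 2 in WT, and LIN54 marked 2 in KO and 2 in WT. Of 30 Polycomb genes, STAG2 marked 1 in KO and 8 in WT, and LIN54 marked 6 in KO and 3 in WT. Of 15 Trithorax and MLL genes, which keep HOX genes active, STAG2 marked 0 in KO and 3 in WT, and LIN54 marked 6 in KO and 1 in WT. Of 11 CTCF and cohesin genes, STAG2 marked 0 in KO and 1 in WT, and LIN54 marked 3 in KO and 0 in WT. By share, LIN54-KO marked 18.2% of cofactor, 20% of Polycomb, 40% of Trithorax and 27.3% of CTCF and cohesin genes, and LIN54-WT 18.2%, 10%, 6.67% and 0%; the first 2 KO shares are near that of all genes, and the lists are short.

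The 75 developmental homeobox genes listed outside the clusters share the homeobox but not the clustering. In the deposited lists, STAG2 and LIN54 marks were rarer among them than among HOX genes and than among all genes. At q 0.01, STAG2 marked 0 in KO and 0 in WT in every library, and LIN54 marked 1 in KO, Dlx2 (5.79 ± 0.270, SD, n = 2), and 0 in WT. In the deposited lists, STAG2 marked 8 in KO (10.7%) and 16 in WT (21.3%), against 17.9% and 43.6% of HOX genes. LIN54 marked 7 in KO (9.33%) and 3 in WT (4.0%), against 35.9% and 15.4% of HOX genes. All genes stood at 25.5% and 35.0% with STAG2 and at 35.5% and 23.8% with LIN54, in KO and WT. The HOX shares were the higher ones in both genotypes for these antibodies, and the difference between the lists was not tested.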

How the data were processed

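Per the submitters' processing notes, the build was mm10 and the tools were MACS2, Bowtie2 and bcl2fastq; versions, settings and whether a control entered the calls are not given in the sources used here. The 15 deposited lists give per peak a fold ratio at the summit, −log10 p, −log10 q and the summit's offset. The deposited score is a multiple of −log10 p without its decimals and was set aside. Values of 1 HOX gene and 1 listed cofactor gene are not reported here, though both are in the counts. Of 17 samples listed, the 2 pMNase controls were not analysed here.

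Only chromosomes 1 to 19, X and Y were used, and a gene was marked by a summit within 500 bp of either end. The genome span was 2722 Mb, from the largest peak end per chromosome. Fragment counts were recovered from fold and p, whole to within 0.0002 on the log10 scale for all 2161 HOX window peaks. The background at the summit had a median of 1.51 to 2.53 fragments per library. Relative densities were compared on the log2 scale with 0.5 added to each peak count, by two-sided exact permutation tests over libraries, with Benjamini-Hochberg adjustment over 12 tests. Library is the unit, and nothing says whether replicates came from separate animals. The gene table gives no strand: the strand of 17 of 39 HOX genes was taken from the cluster.

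The members and lists were chosen with earlier results of these data known. HOX genes were named by rule: the 3 best ranked per group, all marked at q 0.01 in every library of a group, all marked in one genotype alone, and per cluster and antibody the 2 merged regions in most libraries; list genes were named up to 3 per list. Sites with q 0.01 peaks in at least 3 libraries, and Hoxb1, Hoxa5 and other genes beside them, were chosen after their values were seen. Alternatives are −log10 q of at least 2, end windows of 250 or 1000 bp, the 20000 best peaks of each library, no flank or 50000 bp, covered bases, batch 3 by itself, a replicate block and one library left out at a time; leaving libraries out of the q 0.01 counts was chosen after seeing the data. SciPy 1.17.1, pandas 2.3.3, NumPy 2.4.6 and Matplotlib 3.10.9 ran under Python 3.11.15, and the code was tested on simulated data.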

Additional observations from a re-analysis of the deposited data

Results flagged for a closer look

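The STAG2 and LIN54 differences between KO and WT ran in opposite directions at q 0.01. In the Hoxa window, KO minus WT was −10.0 peaks with STAG2 and 11.5 with LIN54, a difference of −21.5 (exact permutation within each antibody, two-sided, p = 0.0167, adjusted p = 0.200 over 24 comparisons). In the Hoxb window it was −14.5 with STAG2 and 3.67 with LIN54, a difference of −18.2 (exact permutation p = 0.0167, adjusted p = 0.200). Both directions were shown by every library of the STAG2 and LIN54 groups, since KO and WT did not overlap, and neither difference passes the adjustment; 0.0167 is the smallest p that 60 arrangements allow here. Counted as HOX genes marked at q 0.01, KO minus WT with STAG2 minus that with LIN54 was −13.0 genes, and this difference was not tested. The q 0.01 totals of the whole libraries moved in the same directions, and their part in the result was not tested. STAG2-KO had 1239 and 6777 such peaks against 25859 and 13346 in STAG2-WT. LIN54-KO had 15787 and 13044 against 4903, 6617 and 2166 in LIN54-WT. Over each library's own q 0.01 density, LIN54 stood in Hoxa at 17.8 and 22.9 in KO and 15.3, 19.8 and 8.64 in WT, which overlap. By that ratio the STAG2 groups did not overlap in Hoxa, and neither antibody's groups did in Hoxb. In the deposited lists the STAG2 minus LIN54 difference in log2 relative density, KO minus WT, was −0.00363 in Hoxa (exact permutation p = 1.00). In Hoxb it was −0.629 (exact permutation p = 0.0833).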

How the results depend on the processing

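Of the 12 density differences, 0 had p under 0.05 under any alternative run, and the lowest exact permutation p was 0.10. All kept their direction without flanks and with flanks of 50000 bp, as did the 4 p130 differences with batch 3 alone. The STAG2 difference in Hoxa changed sign: −0.53 at q 0.01, −0.89 with the 20000 best peaks and −0.87 for covered bases. At q 0.01 the STAG2 difference was 0.95 in Hoxc, where both KO libraries had 0 peaks so that the 0.5 added sets it, and 0.03 in Hoxd. In Hoxd, STAG2-KO replicate 1 had 0 peaks, and the 0.5 added put its log2 value at 3.00. That is above both WT libraries (2.71 and 2.38), so the 0.5 added sets this difference too. With the 20000 best peaks, the p130 differences were −0.37 in Hoxb and 1.09 in Hoxd. The cause was not tested for the other sign changes. Leaving out 1 library at a time, the Hoxa difference ran from −0.12 (without STAG2-KO replicate 2) to 0.32 with STAG2 and from −0.11 (without LIN54-KO replicate 1) to 0.32 with LIN54, where leaving out LIN54-WT replicate 1 gave −0.01. The other 10 kept their sign. Replicate numbers were shared by label alone: deviations of same-numbered libraries correlated at 0.12 in STAG2, 0.01 to 0.02 in LIN54 and 0.02 to 0.04 in p130. With the replicate block, the STAG2 differences were 0.10, −0.37, −0.52 and −0.49 in Hoxa, Hoxb, Hoxc and Hoxd, and no call changed.

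Counts of HOX genes marked in every library moved more. In the order STAG2-KO, STAG2-WT, LIN54-KO, LIN54-WT, p130-KO and p130-WT, they were 7, 17, 14, 6, 1 and 2 in the deposited lists; 0, 5, 2, 0, 0 and 0 at q 0.01; 0, 5, 3, 2, 0 and 0 with the 20000 best peaks; 3, 9, 9, 3, 0 and 1 with a window of 250 bp; and 17, 27, 20, 12, 4 and 16 with 1000 bp. With 1 library left out they were 15 to 16, 25 to 26, 20 to 22, 9 to 11, 2 to 7 and 6 to 7, and p130-WT in batch 3 alone had 6. The STAG2 groups and LIN54-KO hold 2 libraries each, so theirs are single-library counts. In those libraries, all genes stood at 38.7% and 46.2% in STAG2-KO, 50.7% and 53.0% in STAG2-WT, and 47.5% and 49.6% in LIN54-KO. Of genes marked in one genotype alone, leaving out a library gave 0 to 2 for STAG2-KO, 6 to 9 for STAG2-WT, 1 to 3 for LIN54-KO, 1 to 3 for LIN54-WT, 1 to 1 for p130-KO and 0 to 2 for p130-WT. A window of 250 bp gave 2 for LIN54-KO alone, 0 for LIN54-WT alone and 0 for p130-KO alone. LIN54-WT alone had 0 at q 0.01, 0 with the best peaks and 0 with 1000 bp; p130-KO alone had 0 at q 0.01 and 0 with the best peaks; p130-WT alone had 1 in batch 3. At q 0.01, every-library counts with 1 library left out were 0 to 3 in STAG2-KO, 9 to 14 in STAG2-WT, 4 to 4 in LIN54-KO and 0 to 1 in LIN54-WT. The STAG2 and LIN54-KO ranges at q 0.01 are again single-library counts, whose shares of all genes are given above. For the other windows, the best peaks, batch 3 and the remaining left-out counts, no share of all genes is given here. Those counts are therefore not set against a background. Few fragments per summit (3 to 27) limit all of these counts.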

Other observations

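Strong peaks also stood at the ends of genes that regulate the HOX clusters, named here because they were marked at q 0.01 in every library of a group. Jarid2, a partner of Polycomb repressive complexes, had a mean LIN54 fold of 15.5 ± 1.01 in KO and 5.87 ± 1.16 in WT (SD, n = 2 and 3), and a STAG2 fold of 7.02 ± 2.94 in KO and 7.44 ± 3.37 in WT (SD, n = 2 each). Kmt2b, a histone methyltransferase of the MLL family, had LIN54 folds of 8.92 ± 1.02 in KO and 4.20 ± 0.242 in WT. Ctcf was marked by LIN54 at q 0.01 in both KO libraries, at 6.85 ± 0.974. Of 14 immune and endothelial markers, 1 was marked at q 0.01 in every library of a group, Cd68 in LIN54-KO (5.46 ± 1.95, SD, n = 2). Folds are within-library values and these differences were not tested.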
